A study of Mus musculus with 5 samples.

Results

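The C/EBP proteins and their relatives of the basic leucine zipper (bZIP) class were followed in RNA of mouse follicular regulatory T (Tfr) cells in which one of them, Cebpa, had been deleted. The 10 genes were taken by name from the annotated gene rows of 57186 gene IDs in the deposited abundance tables: Cebpa, Cebpb, Cebpd, Cebpg, Cebpz, Ddit3, Nfil3, Dbp, Tef and Hlf. They correspond to 11 gene IDs, because Ddit3 has a second ID inside the first. Of the 10 genes, 9 were abundant enough for the test across 16254 genes, and Hlf was not.

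The Cebpa_KO group held 2 libraries from Foxp3-Cre Cebpa-flox/flox mice, in which Cre recombinase made from the Foxp3 locus deletes floxed Cebpa in Foxp3-expressing cells. The WT group held 3 libraries from Foxp3-GFP reporter mice, so the groups also differ in the modified Foxp3 allele that they carry. Mice of both groups had been given imiquimod, a TLR7 agonist, and spleen cells were sorted at 21 days as live CD4+ Foxp3+ CXCR5+ PD-1+ ICOS+. A library is a pool of cells from several mice, and p-values therefore reflect how pools vary. The sources used here do not give the age of the mice. Tfr cells are regulatory T cells that settle in B cell follicles, where they hold back the antibody response. The title of the study places C/EBP alpha downstream of the cytokine IL-6 in the formation of these cells, and the comparison asks what differs in Tfr cells that lack it.

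C/EBP proteins bind DNA as dimers through a leucine zipper next to a basic region, and each member can pair with most of the others. Cebpa, Cebpb and Cebpd encode activators best known from myeloid, fat and liver cells, whereas Cebpg encodes a short partner without a full activation domain, and Ddit3 (CHOP) a stress-induced partner whose dimers bind classical C/EBP sites poorly. Dbp, Tef and Hlf encode the proline and acidic amino acid rich (PAR) bZIP activators, outputs of the circadian clock, and Nfil3 encodes a repressor of the same D-box sites. Cebpz shares the name only: its product is a nucleolar CCAAT-binding protein of the CBF/MAK21 type, without a leucine zipper.

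The labelled cell type and the libraries were checked first. Aligned depth was 6.76 to 6.80 gigabases in Cebpa_KO and 6.77 to 7.08 gigabases in WT. Each of 10 genes that define Tfr cells was detected in each library, and each was lower in both Cebpa_KO libraries than in every WT library, where 56.7% of all tested genes had groups that did not overlap in either direction. Foxp3 was at 6.74 and 5.58 scaled TPM in Cebpa_KO, against 83.0, 107.3 and 104.8 in WT (log2 fold change -3.79, adjusted p = 0.00115), and Bcl6, Ctla4, Cxcr5, Icos, Il2ra and Cd3e also passed as lower. Y-linked genes summed to 0 and 0.0311 in Cebpa_KO and to 151 to 162 in WT, so the sex of the mice and the genotype cannot be told apart. WT replicate 3 stood apart from the other WT libraries: Hspa1a, a heat shock gene, was at 1147 and 1238 in Cebpa_KO, at 690 in WT replicate 3, and below 1 in WT replicates 1 and 2. Cebpa_KO replicate 1 had the highest sums of neutrophil, macrophage and erythroid markers, and the 12 neutrophil markers summed to 473.9 and 106.9 scaled TPM in Cebpa_KO and to 26.6, 17.5 and 125.1 in WT. Over the genes compared, the root mean square log2 difference was 0.46 between the Cebpa_KO libraries and 0.40 between WT replicates 1 and 2, whereas WT replicate 3 differed from those by 0.63 and 0.65 and from the Cebpa_KO libraries by 0.65 and 0.71.

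The promoters of the 4 genes that passed the test and have an entry in the RefSeq promoter table (mouse build GRCm38.p6) are shown so that they can be compared with the binding motifs of their own family. Each runs from 250 bases before to 50 bases after the RefSeq start, and capitals mark matches to the motifs named below. The coordinates are chr7:35119043-35119342 on the plus strand for Cebpa, chr7:35056517-35056816 on the minus strand for Cebpg, chr10:127290543-127290842 on the plus strand for Ddit3 and chr7:45704997-45705296 on the plus strand for Dbp.
Cebpa: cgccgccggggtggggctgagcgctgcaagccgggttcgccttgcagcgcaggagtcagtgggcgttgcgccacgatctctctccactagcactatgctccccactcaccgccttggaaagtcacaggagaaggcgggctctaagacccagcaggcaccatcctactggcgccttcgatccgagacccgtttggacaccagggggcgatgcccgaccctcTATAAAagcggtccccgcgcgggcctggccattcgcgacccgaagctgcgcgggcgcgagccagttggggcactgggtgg
Cebpg: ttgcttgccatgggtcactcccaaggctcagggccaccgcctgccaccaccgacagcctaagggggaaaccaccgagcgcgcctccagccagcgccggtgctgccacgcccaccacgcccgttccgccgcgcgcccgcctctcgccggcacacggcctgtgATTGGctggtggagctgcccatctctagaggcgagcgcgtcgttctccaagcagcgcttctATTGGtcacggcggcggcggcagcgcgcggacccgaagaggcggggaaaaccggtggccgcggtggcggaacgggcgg
Ddit3: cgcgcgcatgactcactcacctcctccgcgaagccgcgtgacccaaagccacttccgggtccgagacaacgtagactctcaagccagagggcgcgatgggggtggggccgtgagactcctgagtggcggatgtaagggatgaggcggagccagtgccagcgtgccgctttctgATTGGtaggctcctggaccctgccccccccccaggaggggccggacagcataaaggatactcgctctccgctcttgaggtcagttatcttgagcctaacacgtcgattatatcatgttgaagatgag
Dbp: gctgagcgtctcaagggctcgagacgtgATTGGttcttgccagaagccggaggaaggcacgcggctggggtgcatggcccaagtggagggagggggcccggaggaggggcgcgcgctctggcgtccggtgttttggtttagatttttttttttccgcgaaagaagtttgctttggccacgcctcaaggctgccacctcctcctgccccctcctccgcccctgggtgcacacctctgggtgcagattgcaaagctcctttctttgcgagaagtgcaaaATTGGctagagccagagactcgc

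Entries existed for 8 of the 10 genes, 9 promoters in all. Both strands were searched for the C/EBP palindrome TTGCNNCAA, the shorter C/EBP form TTGCNNAA, the C/EBP-ATF composite TGATGNAA, the D-box TTATGNAA, the E-box CACGTG, the cyclic AMP element, the CCAAT box and the TATA box TATAAA. None of the 9 promoters held an exact match to either C/EBP form, the composite or the D-box. Exact matches to these are present in 2.08%, 10.8%, 3.97% and 3.38% of all 32851 promoters in the table. Near matches were not counted. The Cebpa sequence above holds ttgcgccac, which differs from the palindrome TTGCNNCAA only at the last base. Cebpa has a TATA box 30 bases before its start, a motif found in 13.6% of promoters. Cebpg has CCAAT boxes (as ATTGG) 89 and 28 bases before its start, and Ddit3 and Nfil3 each have one 77 bases before theirs, against 37.4% of promoters with at least 1. Both Tef promoters hold the E-box bound by clock proteins, 127 and 138 bases before the start, against 7.15% of promoters. The matches are descriptions of these windows and are not evidence of binding.

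Cebpa (ENSMUSG00000034957, mm39 chromosome 7, 34818718 to 34821353) was at 0.317 and 0.550 scaled TPM in the Cebpa_KO libraries, against 12.9, 17.7 and 12.8 in the WT libraries. The groups did not overlap, and the Cebpa_KO mean was 33.4 times lower (log2 fold change -3.42, SE 0.20, limma adjusted p = 0.00371). The two-sided exact permutation test of the 5 libraries gave p = 0.1, the smallest that 10 splits allow. Without Cebpa_KO replicate 2 the adjusted p was 0.0512. The deposited coverage per base did not overlap either, at 0.953 and 1.62 in Cebpa_KO and 37.3, 54.0 and 35.8 in WT. In WT cells Cebpa was a middling transcript, above 51.3% of the tested genes.

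Of the 9 tested genes, 2 were higher in Cebpa_KO (Cebpd and Cebpg), 3 were lower (Cebpa, Ddit3 and Dbp) and 4 did not pass (Cebpb, Cebpz, Nfil3 and Tef). Across all tested genes 19.7% passed, 9.93% in the higher and 9.82% in the lower direction, at an adjusted p under 0.05. The median log2 fold change was 0.12 over the 9 genes and 0.01 over all tested genes. Libraries of the 2 groups did not overlap in 7 of the 9, against a background of 56.7%. The counts of falls and of non-overlap include Cebpa, the deleted gene, whose fall was set by the design.

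**Figure D1:**
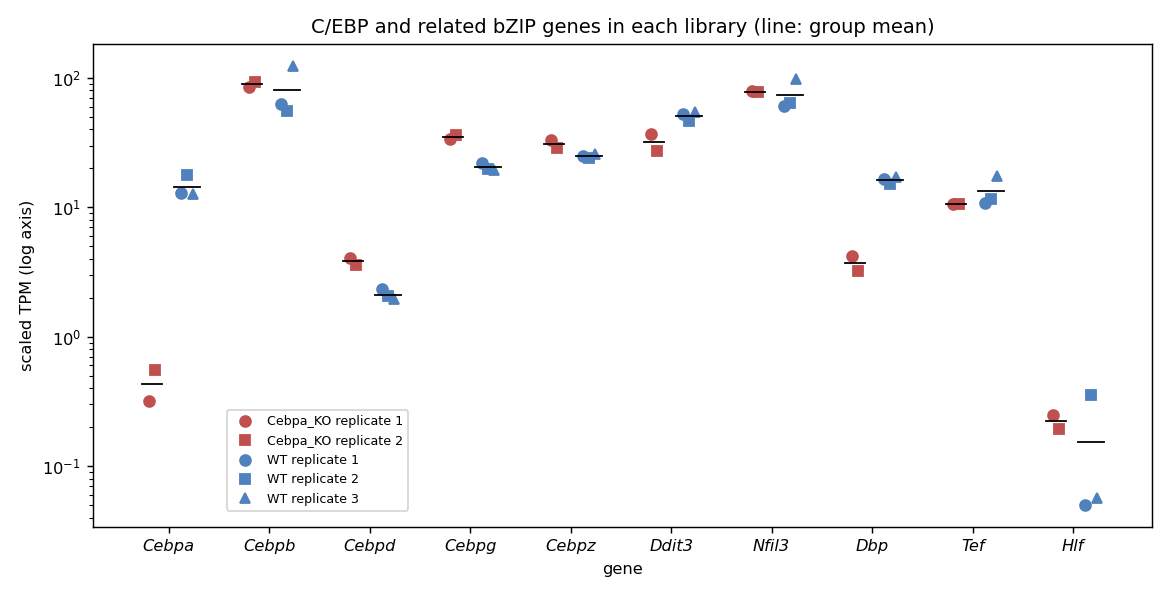
Scaled TPM of each of the 10 genes in each library on a log axis, with Cebpa_KO (red) left of WT (blue) and a line at the group mean. Cebpa lies below 1 in both Cebpa_KO libraries and above 10 in the WT libraries. WT replicate 3 (triangle) is the highest library for Cebpb, Ddit3, Nfil3, Dbp and Tef.

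Cebpb (ENSMUSG00000056501, chromosome 2, 167530835 to 167532338) was the most abundant of the 10 genes in both groups. It was at 84.6 and 93.3 scaled TPM in Cebpa_KO, against 63.4, 55.8 and 123.6 in WT, so the groups overlapped (log2 fold change 0.22, SE 0.35, adjusted p = 0.669, exact permutation p = 0.7). Both Cebpa_KO libraries lay above WT replicates 1 and 2 and below WT replicate 3. Without WT replicate 3 the log2 fold change was 0.57 with an adjusted p of 0.0231, whereas against WT replicate 3 alone the log2 difference was -0.47. The neutrophil marker sum was 473.9 and 106.9 in the same Cebpa_KO libraries and 26.6, 17.5 and 125.1 in the WT libraries. It was highest in WT replicate 3 among the WT libraries, as Cebpb was, and higher in the Cebpa_KO library with less Cebpb, and its part in the Cebpb values was not tested. Peds1, on the other strand, shares 908 bases with Cebpb. It stood at 77.8 and 65.0 scaled TPM in Cebpa_KO and 89.2, 82.1 and 96.7 in WT. Whether counting used strand is not given, so reads of the overlap cannot be told apart.

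Cebpg, whose product pairs with the other members and with ATF4, rose to 33.7 and 36.4 scaled TPM in Cebpa_KO, against 22.0, 19.7 and 19.4 in WT (ENSMUSG00000056216, chromosome 7, 34745847 to 34755998). Both Cebpa_KO libraries lay above the WT libraries, 1.72 times as high on average (log2 fold change 0.76, SE 0.10, adjusted p = 0.0125). The rise was called in each form of the deposited values, with an adjusted p of 0.00767 for coverage and 0.0414 for assembled loci. It did not pass without WT replicate 2 (adjusted p = 0.0532), without Cebpa_KO replicate 1 (0.0938) or without Cebpa_KO replicate 2 (0.106).

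Cebpd, an activator induced early in inflammation, was scarce in both groups. It rose to 4.08 and 3.57 scaled TPM in Cebpa_KO, against 2.32, 2.07 and 1.96 in WT (ENSMUSG00000071637, chromosome 16, 15705150 to 15708895). The log2 fold change was 0.63 (SE 0.15, adjusted p = 0.0402). Coverage gave a larger difference, at 8.16 and 7.41 per base in Cebpa_KO and 2.49, 1.74 and 2.86 in WT, which is 3.21 times as high on the TPM scale against 1.81 times in the TPM column. The call ended in every fit that left out a library, with adjusted p between 0.0551 and 0.229. Spidr, on the other strand, shares 1808 bases with Cebpd and stood at 12.9 and 11.8 scaled TPM in Cebpa_KO and 9.66, 8.96 and 7.43 in WT. No source used here states whether counting used strand, and the reads of this pair cannot be told apart.

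Together Cebpa, Cebpb, Cebpd and Cebpg summed to 122.7 and 133.9 scaled TPM in Cebpa_KO and to 100.6, 95.3 and 157.8 in WT. Cebpa made up 0.258% and 0.411% of that sum in Cebpa_KO, against 12.8%, 18.6% and 8.09% in WT. The share of Cebpb was 68.9% and 69.7% in Cebpa_KO, between the 58.5% and 63.0% of WT replicates 2 and 1 and the 78.4% of WT replicate 3. The share of Cebpg was 27.5% and 27.2% in Cebpa_KO, above the 21.9%, 20.7% and 12.3% of the WT libraries. Without Cebpa, the other 3 genes summed to 122.4 and 133.3 in Cebpa_KO and to 87.7, 77.6 and 145.0 in WT, so the groups overlapped. These shares count transcripts per length and not protein, and reads of the Peds1 overlap cannot be told apart from those of Cebpb.

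**Figure D2:**
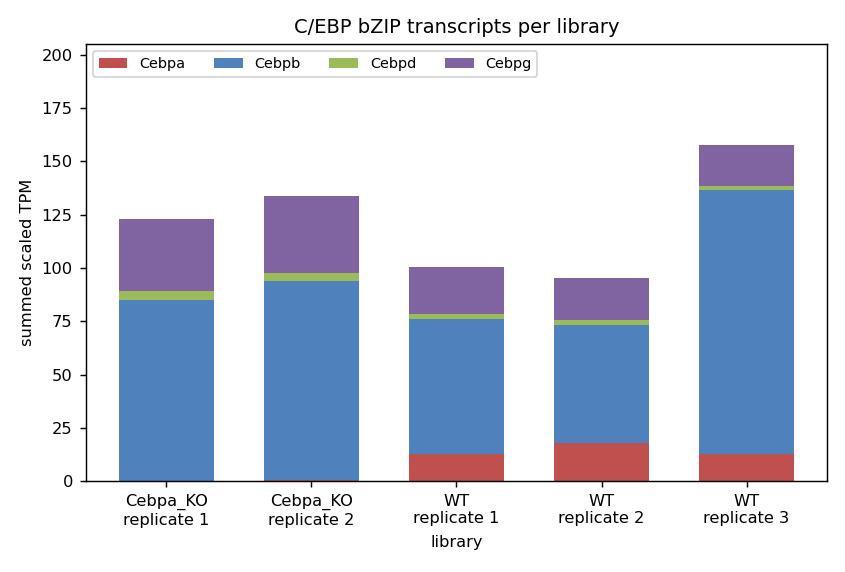
Summed scaled TPM of the C/EBP genes with a leucine zipper in each library, stacked by gene, with Cebpa_KO left of WT. Cebpb is the largest part of each bar, and the red Cebpa part, 8.09% to 18.6% of the WT bars, is under 1% in both Cebpa_KO bars.

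Ddit3, the stress-induced partner CHOP, fell to 36.5 and 27.1 scaled TPM in Cebpa_KO, against 52.5, 46.8 and 54.1 in WT (ENSMUSG00000025408, chromosome 10, 127126643 to 127132157). The groups did not overlap (log2 fold change -0.68, SE 0.15, adjusted p = 0.0351). The second gene ID (ENSMUSG00000116429) lies inside the first, and its values overlapped, at 29.6 and 21.0 in Cebpa_KO and 33.1, 21.3 and 37.0 in WT (log2 fold change -0.24, adjusted p = 0.557). How the quantification divides reads between the pair is uncertain, and the locus assembled in each library gave an adjusted p of 0.157. Leaving out any 1 library ended the call, with adjusted p between 0.052 and 0.164. Mars1, the methionyl-tRNA synthetase gene that shares 68 bases with Ddit3 on the other strand, rose to 128.0 and 123.5 in Cebpa_KO, against 71.6, 70.3 and 81.2 in WT (log2 fold change 0.75, adjusted p = 0.0104).

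Cebpz (ENSMUSG00000024081, chromosome 17, 79226435 to 79244495) was at 33.1 and 28.7 scaled TPM in Cebpa_KO and 24.7, 24.1 and 25.8 in WT. Although the groups did not overlap, the log2 fold change of 0.30 (SE 0.10) did not pass, with an adjusted p of 0.0992. Cebpzos, on the other strand, shares 2043 bases with Cebpz, and reads of the overlap cannot be told apart. It stood at 11.1 and 10.6 scaled TPM in Cebpa_KO and 13.5, 12.4 and 13.7 in WT.

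Dbp, the D-box activator whose transcript follows the clock in many tissues, had the largest difference after Cebpa in the TPM column. It fell to 4.20 and 3.25 scaled TPM in Cebpa_KO, against 16.5, 15.2 and 17.2 in WT (ENSMUSG00000059824, chromosome 7, 45354512 to 45359627). That is 4.37 times lower (log2 fold change -1.88, SE 0.14, adjusted p = 0.0055), and without Cebpa_KO replicate 1 or 2 the adjusted p was 0.0575 or 0.0703. The size depended on the deposited form. Coverage was 12.7 and 9.58 per base in Cebpa_KO and 26.6, 24.1 and 25.5 in WT, which is 2.34 times lower on the TPM scale (log2 fold change -1.03, adjusted p = 0.01).

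The assembled loci did not give the call for Dbp. They held 23.7 and 4.90 TPM in Cebpa_KO and 16.4, 15.8 and 16.9 in WT (log2 fold change -0.52, adjusted p = 0.6). In WT each library had 1 locus with the full annotated extent, whereas Cebpa_KO replicate 1 had a locus of 3396 bases at 7.83 TPM and a separate one of 234 bases near the 3′ end at 15.9 TPM. Cebpa_KO replicate 2 had a single locus of 3517 bases that did not reach the annotated end. Sphk2, which overlaps Dbp by 737 bases on the other strand, also fell, to 26.8 and 28.0 scaled TPM in Cebpa_KO against 38.2, 39.3 and 41.4 in WT (log2 fold change -0.52, adjusted p = 0.0192). Reads of the overlap cannot be told apart, and its part in the differences between forms was not tested.

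**Figure D3:**
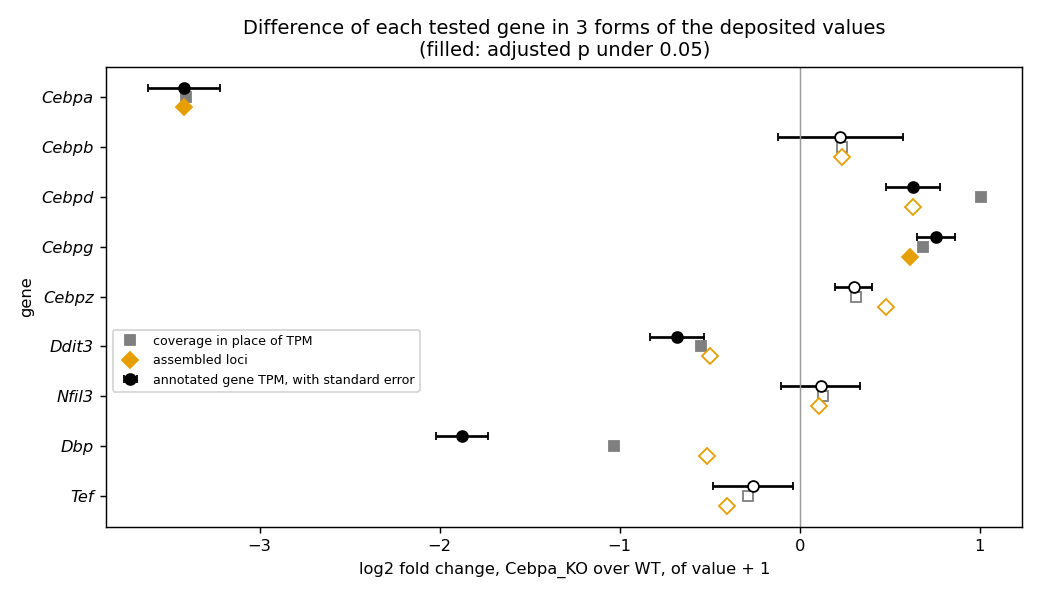
Log2 fold change of Cebpa_KO over WT for each tested gene, from the annotated TPM (black, with its SE), from coverage (grey squares) and from assembled loci (orange diamonds), filled where the adjusted p was under 0.05. The forms nearly coincide for Cebpa, Cebpb and Nfil3, and for Dbp they range between -1.88 and -0.52.

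Tef, the PAR factor of the same D-box class, was at 10.66 and 10.68 scaled TPM in Cebpa_KO and 10.75, 11.6 and 17.5 in WT (ENSMUSG00000022389, chromosome 15, 81686622 to 81711064). The WT values lay above both Cebpa_KO values by a narrow margin, and the difference did not pass (log2 fold change -0.26, SE 0.22, adjusted p = 0.434). Hlf (ENSMUSG00000003949, chromosome 11, 90227362 to 90281721) was at 0.250 and 0.194 in Cebpa_KO and 0.0503, 0.357 and 0.0565 in WT. Those values overlapped and were too low for the test.

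Nfil3, which represses D-box genes and takes part in T cell and natural killer cell differentiation, was the second most abundant of the genes. It was at 78.5 and 78.3 scaled TPM in Cebpa_KO and 60.4, 64.0 and 97.6 in WT (ENSMUSG00000056749, chromosome 13, 53121245 to 53135109). The groups overlapped (log2 fold change 0.12, SE 0.22, adjusted p = 0.727), and the WT libraries divided as for Cebpb. Without WT replicate 3 the log2 fold change was 0.33 with an adjusted p of 0.0396. Set against the PAR factors, Nfil3 was 5.20 and 5.55 times the sum of Dbp, Tef and Hlf in Cebpa_KO, against 2.22, 2.36 and 2.81 times in WT. The PAR sum was 15.1 and 14.1 in Cebpa_KO and 27.3, 27.2 and 34.8 in WT, which rests on the TPM form of Dbp.

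The order of levels in the Cebpa_KO libraries was Cebpb, Nfil3, Cebpg, Ddit3, Cebpz, Tef, Cebpd, Dbp, Cebpa and Hlf. Ddit3 overlapped there with both Cebpg and Cebpz, and Cebpd overlapped with Dbp. In WT the order was Cebpb, Nfil3, Ddit3, Cebpz, Cebpg, Dbp, Cebpa, Tef, Cebpd and Hlf, with overlap between Cebpb and Nfil3 and along Dbp, Cebpa and Tef. In the TPM column Cebpg thus stood above Cebpz in both Cebpa_KO libraries and below it in the WT libraries. The margin in Cebpa_KO replicate 1 was narrow, at 33.7 against 33.1. The other forms placed Cebpg below Cebpz in Cebpa_KO too. Coverage on the TPM scale was 24.8 and 25.7 for Cebpg against 32.1 and 27.7 for Cebpz. Assembled loci held 35.8 and 38.3 TPM against 84.7 and 95.9.

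Genes with the most similar pattern were those whose centred log2 levels differed least over the 5 libraries, among 9696 genes with a mean of at least 5. For Cebpa they were Kdm5d, a Y-linked histone demethylase gene (root mean square difference 0.15), Atp6v0d2, a subunit of the vesicular proton pump (0.16), and Il1rn, the IL-1 receptor antagonist (0.25). Atp6v0d2 was at 0.952 and 1.15 scaled TPM in Cebpa_KO and 20.7, 20.3 and 18.7 in WT, and Il1rn at 3.86 and 4.02 in Cebpa_KO and 53.5, 44.6 and 51.5 in WT. For Cebpb they were Snord49b (0.091), the linker histone gene H1f2 (0.095) and Rgs16, an inhibitor of G protein signalling (0.12), each highest in WT replicate 3. For Nfil3 they were the receptor segment Trav6-1 (0.023), the zinc transporter gene Slc39a7 (0.048) and Proser1 (0.056).

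The clock genes that drive and answer to the PAR factors were counted as a list. Of 17 listed genes 13 were tested, 1 rose, 1 fell and 11 did not pass, against 19.7% called over all tested genes, and the median log2 fold change was -0.14 against 0.01 over all tested genes. Bhlhe40, a repressor of CLOCK and BMAL1, rose to 476 and 509 scaled TPM in Cebpa_KO, against 74.8, 77.7 and 176.4 in WT (log2 fold change 2.28, adjusted p = 0.0201). Cry2, a core repressor of the clock, fell to 5.46 and 6.38 in Cebpa_KO, against 13.3, 14.4 and 17.0 in WT (log2 fold change -1.20, adjusted p = 0.011).

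Bmal1, which activates Dbp, and Nr1d1, which represses Bmal1, did not pass. Bmal1 was at 28.2 and 28.3 scaled TPM in Cebpa_KO and 34.4, 44.3 and 35.0 in WT (adjusted p = 0.0927), and Nr1d1 at 3.34 and 3.23 in Cebpa_KO and 1.45, 1.15 and 2.17 in WT (adjusted p = 0.0607). Ciart followed the split of the WT libraries, at 28.6 and 27.2 in Cebpa_KO, 20.6 in WT replicate 3, and 4.06 and 3.94 in WT replicates 1 and 2. The time of day of collection is not given in the sources used here. Without WT replicate 3 the counts were 4 higher and 1 lower, without WT replicate 1 or 2 they were 0 and 1, and without either Cebpa_KO library no gene of the list passed.

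The integrated stress response, in which ATF4 pairs with C/EBP proteins and Ddit3 is a target, had 22 of 26 listed genes tested. In Cebpa_KO 6 rose, 2 fell and 14 did not pass, with a median log2 fold change of 0.19 and a background of 19.7% called. Asns, the asparagine synthetase gene and a C/EBP-ATF target, rose to 27.8 and 22.7 scaled TPM in Cebpa_KO, against 5.92, 6.33 and 7.45 in WT (log2 fold change 1.79, adjusted p = 0.00623). Atf3, an induced bZIP repressor, rose to 8.27 and 7.50 in Cebpa_KO, where WT replicates 1 and 3 were at 0.0513 and 0.746 and WT replicate 2 was listed at 0 (log2 fold change 2.86, adjusted p = 0.00715). Each WT value was under 1, so Atf3 passed the filter of a TPM of 1 in 2 libraries only through Cebpa_KO. Its call, counted among the 6, is therefore no separate support. With either Cebpa_KO library left out, Atf3 did not reach the filter and was not tested. Also higher were Eif2s1, the translation factor eIF2 alpha (log2 fold change 0.83, adjusted p = 0.00682), and Psat1, an enzyme of serine synthesis (log2 fold change 0.78, adjusted p = 0.00985). Hspa5, the endoplasmic reticulum chaperone BiP, rose by 0.95 on the log2 scale (adjusted p = 0.0274), and Ero1a, a disulfide oxidase, by 0.44 (adjusted p = 0.0299).

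The other direction held Ddit4 and Sesn2, inhibitors of mTORC1. Ddit4 fell to 16.0 and 14.9 scaled TPM in Cebpa_KO, against 26.8, 36.2 and 34.4 in WT (log2 fold change -1.01, adjusted p = 0.0154), and Sesn2 fell by 0.79 on the log2 scale (adjusted p = 0.0244). Atf4 itself was at 128.8 and 123.7 in Cebpa_KO and 65.0, 64.8 and 97.6 in WT and did not pass (adjusted p = 0.0525). Trib3, a pseudokinase target of CHOP and ATF4, was at 2.7 and 1.8 in Cebpa_KO and 5.47, 3.13 and 3.97 in WT (adjusted p = 0.118). Ppp1r15a, of the same list, went the other way and did not pass either (adjusted p = 0.122). Its values were 811 and 864 in Cebpa_KO and 80.2, 99.8 and 596.9 in WT. Without WT replicate 3, 10 genes of the list rose and 2 fell. Without WT replicate 1 there were 4 and 2, without WT replicate 2 there were 4 and 0, and without either Cebpa_KO library none passed.

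Among 19 tested bZIP genes of other families, out of 22 listed, 0 rose and 1 fell by limma, against 19.7% called over all tested genes, and the median log2 fold change was -0.12. At an unadjusted p under 0.05 there were 2 higher and 3 lower. Jdp2, a repressor that dimerizes with AP-1 proteins, fell to 9.29 and 7.80 scaled TPM in Cebpa_KO, against 24.7, 23.0 and 33.0 in WT (log2 fold change -1.54, adjusted p = 0.00985). Atf1, Creb3 and Atf7 came nearest to the threshold without passing, with adjusted p of 0.0682, 0.0686 and 0.0729. Without WT replicate 1, 2 genes of the list fell, and without WT replicate 3 the list had 1 rise and 1 fall. Without either Cebpa_KO library none passed.

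Genes that act on C/EBP proteins or on their induction by IL-6 gave 2 rises and 2 falls among 15 tested of 16 listed, with a median of -0.05 and a background of 19.7% called. The IL-6 receptor chains were the falls. Il6ra was at 5.62 and 5.63 scaled TPM in Cebpa_KO, against 10.4, 20.6 and 18.8 in WT (log2 fold change -1.36, adjusted p = 0.0344). Il6st, the shared chain gp130, was at 28.6 and 27.1 in Cebpa_KO, against 61.5, 80.0 and 67.9 in WT (log2 fold change -1.29, adjusted p = 0.00716). Socs3, the feedback inhibitor of gp130, rose to 92.4 and 87.2 in Cebpa_KO, against 41.9, 47.3 and 66.2 in WT (log2 fold change 0.81, adjusted p = 0.0459). Calr, whose product can bind Cebpa and Cebpb transcripts, rose by 0.42 (adjusted p = 0.0365). Stat3 was at 224 and 237 in Cebpa_KO and 154, 179 and 211 in WT and did not pass (adjusted p = 0.136). No rise passed without WT replicate 1 or 2 or without either Cebpa_KO library, and 4 passed without WT replicate 3. The falls numbered 3 without WT replicate 1, 1 without WT replicate 2 or 3, and 0 without either Cebpa_KO library.

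Genes known as C/EBP targets in myeloid cells had a high median without calls in that direction. Of 16 listed, 14 were tested, 0 rose and 1 fell by limma (Il6ra, which also stands in the list above), with 13 not called, a median log2 fold change of 1.69 and a background of 9.93% called higher and 9.82% called lower. At an unadjusted p under 0.05 there were 3 higher and 2 lower. Mpo, the granule enzyme myeloperoxidase, was at 50.8 and 10.6 scaled TPM in Cebpa_KO and 3.34, 1.77 and 6.12 in WT (adjusted p = 0.0659). Prtn3, a neutrophil protease, was at 16.6 and 4.08 in Cebpa_KO and 0.320, 0.977 and 1.82 in WT (adjusted p = 0.052). Cebpe, the C/EBP of late granulocytes, was at 0.734 and 0.205 in Cebpa_KO, at 0.328 in WT replicate 3, and listed at 0 in WT replicates 1 and 2. Gfi1, a repressor that opposes monocyte fate, was at 21.2 and 24.3 in Cebpa_KO and 31.8, 28.9 and 35.5 in WT (adjusted p = 0.0526). The granule genes were higher in Cebpa_KO replicate 1 than in replicate 2, as the neutrophil marker sum was. That sum includes Mpo, Prtn3 and other genes of this list, so it is not a separate observation. Without WT replicate 3, 6 genes of the list were higher, and without Cebpa_KO replicate 2, 1 was. Il6ra did not pass without WT replicate 2 (adjusted p = 0.092), without WT replicate 3 (0.0539), or without Cebpa_KO replicate 1 (0.168) or 2 (0.163).

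Marker lists of other lineages are given beside these results. Markers counted here as higher or lower are those whose groups did not overlap, which held for 56.7% of all tested genes. Of 12 neutrophil markers, 3 were higher and 0 lower in Cebpa_KO, and the defining marker Ly6g was at 1.02 and 0.149 scaled TPM in Cebpa_KO and 0.204 to 0.219 in WT. The 12 macrophage markers summed to 147.8 and 58.9 in Cebpa_KO and 65.8 to 126.8 in WT, with 0 higher and 1 lower. The 10 dendritic cell markers summed to 207 and 225 in Cebpa_KO and 89.1 to 92.9 in WT, with 5 higher, and 8 of them averaged under 1. The 12 B cell and plasma cell markers summed to 3787 and 2881 in Cebpa_KO and 4204 to 6767 in WT, with 1 higher and 2 lower. The 10 CD8 and natural killer markers summed to 444 and 566 in Cebpa_KO and 317 to 785 in WT, with 0 higher and 4 lower. The 8 erythroid markers summed to 2160 and 238 in Cebpa_KO and 62.4 to 714 in WT, with 1 higher. No marker was at 0 in every library, and their part in the values above was not tested. In bulk RNA, fewer cells of a type and less RNA per cell cannot be told apart.

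**Figure D4:**
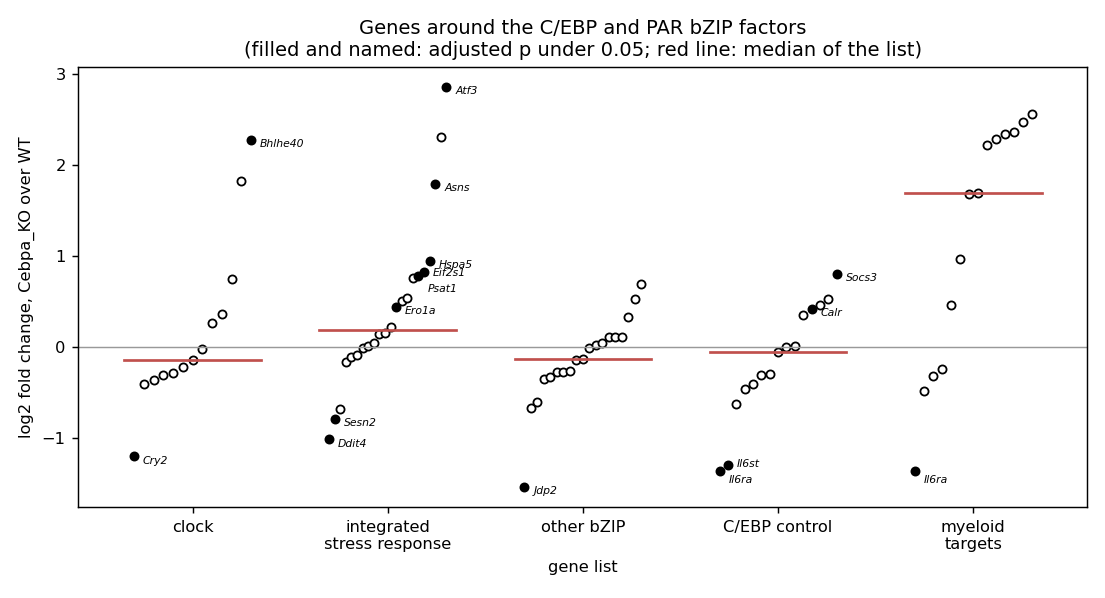
Log2 fold change of Cebpa_KO over WT for each tested gene of the 5 related lists, ordered within each list, with filled and named points where the adjusted p was under 0.05 and a red line at the list's median. The myeloid targets have the highest median, 1.69, without a called rise, and the stress response list has the most called rises, 6.

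Cebpg and Cebpa lie 62.7 kb apart on mouse chromosome 7, so the neighbourhood was examined. Within 500 kb of Cebpa the tables list 35 genes, of which 12 were tested, 3 rose and 0 fell by limma, against 19.7% called over all tested genes, with a median log2 fold change of 0.09. At an unadjusted p under 0.05 there were 3 higher and 1 lower. The rises were Cebpg, Slc7a10 and Nudt19. Slc7a10, which encodes the small neutral amino acid transporter Asc-1 and starts 64.5 kb past Cebpa, rose to 450 and 414 scaled TPM in Cebpa_KO, against 185, 193 and 153 in WT (log2 fold change 1.29, SE 0.12, adjusted p = 0.00682). Nudt19, a CoA diphosphatase gene 425.3 kb away, rose by 0.48 (SE 0.12, adjusted p = 0.0463).

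The other 9 tested neighbours did not pass. Pepd, next to Cebpg, was at 85.6 and 85.7 scaled TPM in Cebpa_KO and 81.5, 83.0 and 84.4 in WT. Lrp3, which overlaps the end of Slc7a10 on the other strand, was at 6.88 and 8.68 in Cebpa_KO and 3.77, 6.47 and 2.73 in WT (log2 fold change 0.78, adjusted p = 0.142). Reads of that overlap cannot be told apart. Gpatch1, Faap24, Cep89 and Ankrd27 had log2 fold changes between -0.15 and 0.24. Of the gene models inside or beside Cebpg, Gm44836 and Gm45094 had -0.70 and -0.69 and Gm45095 had 0.14, and their reads cannot be told apart from those of Cebpg. Without WT replicate 2, 1 neighbour rose, and without WT replicate 3, 2 rose and 2 fell. Without either Cebpa_KO library none passed.

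**Figure D5:**
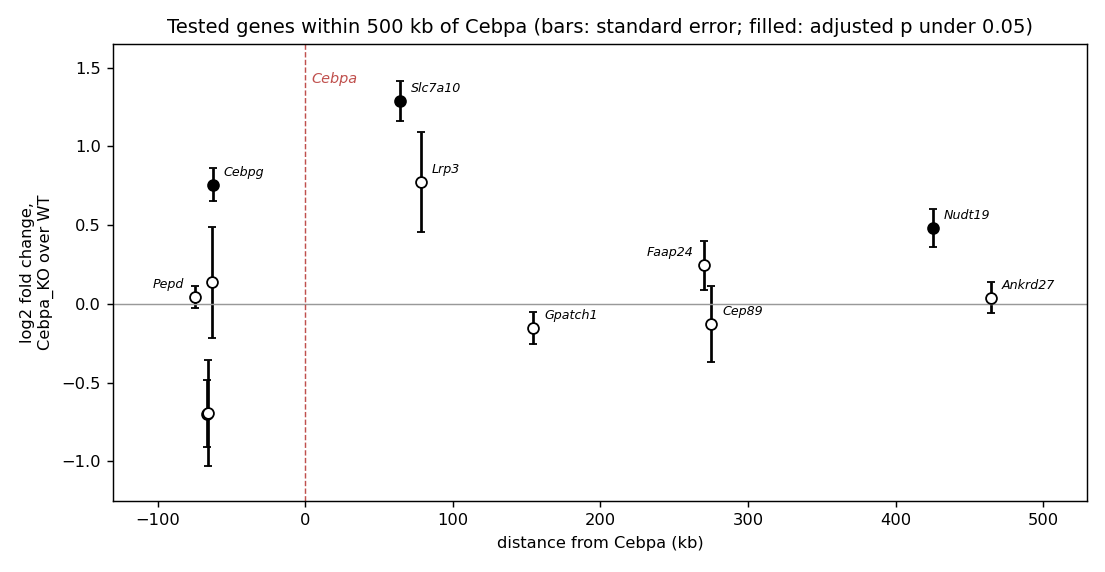
Log2 fold change of Cebpa_KO over WT (points, with SE) for the tested genes within 500 kb of Cebpa, by distance from it in kb, filled where the adjusted p was under 0.05. Slc7a10, at 64.5 kb, has the largest difference, 1.29, and the 3 unnamed points are gene models at Cebpg.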

How the data were processed

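RNA of sorted splenic Tfr cells was made into libraries with a low-input full-length cDNA kit and tagmentation, per the labels' protocols. Reads were processed with STAR 2.7.11b and StringTie 2.1.3b on mm39, per the submitters' processing notes; the strand setting, like the annotation release and the read length, is not given in the sources used here. Per the file headers, each table deposited by the authors holds coverage, FPKM and TPM. The deposited TPM column is treated as a score, since assembled loci sum to 1000000 and annotated genes repeat 96.7% to 97.6% of it. Annotated rows were used. The deposited FPKM served, with coverage, for the depth, and also to put coverage on the TPM scale. Coverage, a signal per base deposited by the authors, was also an alternative form. Since no read counts were at hand, no count model, counting interval or detection floor was used.

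Libraries were put on 1 scale by median-ratio factors (0.984 to 1.04). Genes that reached a TPM of 1 in 2 or more of 5 libraries were tested on log2(scaled TPM + 1), which understates changes of low genes, with limma 3.58.1 in R 4.3.3, an intensity trend and Benjamini-Hochberg adjustment over 16254 genes at 0.05. The script was tested on simulated data. A list is described by its counts and median; no set test was run. The genes, lists and tests were chosen with earlier results of these data known. The text names the 10 genes, the members of the related lists that passed, up to 4 of each with the smallest p, the tested neighbours within 500 kb and the 3 genes most like Cebpa, Cebpb and Nfil3. Ciart, Atf4, Trib3, Ppp1r15a, Stat3, Cebpe, Hspa1a and the overlapping genes were named after their values were seen. Of the clock list, 1 gene is not reported here and is left out of its counts. No pair of libraries was a duplicate: at most 7 genes had an identical TPM in any pair. Alternatives were pseudocounts of 0.1 and 5, no filter, a TPM filter of 5, unscaled TPM, quantile normalization, array weights, a replicate block and each library left out. Coverage and assembled loci were added after seeing the data. Promoters are from RefSeq on GRCm38.p6, and other coordinates are those of the deposited mm39 tables. Tables were read with pandas 2.3.3 and plots drawn with matplotlib 3.10.9.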

Additional observations from a re-analysis of the deposited data

Results flagged for a closer look

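Unannotated loci between Cebpa and Slc7a10, which the comparisons did not use, were assembled in both Cebpa_KO libraries and in none of the WT libraries. A locus that was not assembled can still have reads. Cebpa_KO replicate 1 had 2 such loci summing to 5.49 TPM, and Cebpa_KO replicate 2 had 3 summing to 5.35 TPM, against 0 loci in each of the 3 WT libraries. Only 1 position was shared by both Cebpa_KO libraries. Its loci ended at 34881558 and 34881465, before the start of Slc7a10 at 34885810, a gene that was itself higher in Cebpa_KO. A link to Slc7a10 was not tested. The loci carried no strand. Over the whole genome, loci without a strand numbered 1013 and 1108 in Cebpa_KO and 865, 778 and 1011 in WT. The difference was not tested. Groups of 2 and 3 libraries were too small for the test of a single outlying value.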

How the results depend on the processing

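Of 44 single-gene results, none changed sign while called. The direction and call were kept for 44 with a pseudocount of 0.1, 43 with 5, 43 unscaled and 41 by coverage. With no filter, 10 lost their call, with the replicate block 6 and with assembled loci 6. When Cebpa_KO replicate 1 was left out 20 lost it, and when replicate 2 was, 21 did. Over all genes, the 1614 higher and 1596 lower became 9 and 25 without Cebpa_KO replicate 1, 5 and 18 without Cebpa_KO replicate 2, 437 and 390 without WT replicate 2, 966 and 1013 without WT replicate 1, 930 and 629 with no filter, and 2575 and 2440 with array weights.

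Of the C/EBP and related genes, 1 in place of 2 was higher with no filter, a TPM filter of 5 or quantile normalization. The same held with the block or assembled loci. The lower count was 2 in place of 3 with no filter and 1 with assembled loci. Clock genes numbered 2 higher with a pseudocount of 5, the block, coverage or assembled loci, 3 with array weights and 0 with no filter, and 2 in place of 1 lower with array weights, coverage or assembled loci. Stress response genes numbered 5 in place of 6 higher with no filter and 9 with array weights or the block. They numbered 7 higher with a TPM filter of 5, unscaled TPM, coverage or assembled loci. The lower count was 0 with no filter and 1 with the block. Other bZIP genes numbered 2 higher with array weights and 1 with the block, and 2 lower with quantile normalization, the block or assembled loci and 3 with array weights or coverage. Control genes numbered 0 higher with no filter, 1 with quantile normalization or assembled loci and 3 with array weights or the block. They numbered 1 lower with no filter or the block and 3 with array weights. Myeloid targets numbered 1 higher with quantile normalization, 3 with array weights and 5 with the block, and 0 lower with no filter or the block and 2 with a TPM filter of 5, unscaled TPM, array weights or coverage. Neighbours numbered 2 in place of 3 higher with no filter, quantile normalization, the block or assembled loci. They numbered 1 lower with array weights or the block. The causes were not tested.

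Leaving out 1 library in turn, the higher and lower counts ranged over 0 to 3 and 0 to 2 for the 10 genes, 0 to 4 and 0 to 1 for the clock, 0 to 10 and 0 to 2 for the stress response, 0 to 1 and 0 to 2 for other bZIP genes, 0 to 4 and 0 to 3 for control genes, 0 to 6 and 0 to 1 for myeloid targets, and 0 to 3 and 0 to 2 for neighbours. Without a Cebpa_KO library, the lone one left is assumed to vary like the WT libraries. Deviations from the group means correlated at -0.18 for replicate 1 and 0.27 for replicate 2. The deviations of 2 Cebpa_KO libraries mirror each other, so these correlations cannot show or exclude pairing by replicate number. The replicate block called 1359 genes higher and 1050 lower.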
